A study of Mus musculus with 27 samples.

Results

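The 43 genes described here code for the enzymes of glycolysis and of the tricarboxylic acid (TCA) cycle. They were chosen by symbol from the table of normalized read counts: 17 genes of glycolysis, from hexokinase to lactate dehydrogenase, 24 genes of pyruvate entry and the TCA cycle, and the 2 regulators Hif1a and Pdk1. All 43 were among the 45070 genes of the table, and all 43 were among the 13901 genes that had at least 10 normalized read counts in at least 3 samples and were therefore tested.

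The samples were wild-type bone marrow-derived macrophages (BMDMs), which are primary macrophages grown from mouse bone marrow, here of male C57/BL6 mice 6 to 8 weeks old. All were kept 1 h in DMSO, the solvent for the inhibitors used in other parts of the study, and were then left untreated or were given lipopolysaccharide (LPS, a bacterial cell wall component sensed through TLR4) or interleukin-4 (IL-4) for 0.5, 1, 2 or 4 h, both at 10 ng/ml, with 3 replicates in each of the 9 groups. The RNA was the fraction bound to chromatin, rich in transcripts not yet released, so a value here reflects recent synthesis more than the stock of mRNA in the cell. The sources used here do not say whether replicates came from separate animals or cultures, so the p-values measure the spread between these samples, which may be technical.

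Glycolysis splits glucose into pyruvate in the cytosol, and lactate dehydrogenase turns pyruvate into lactate. Pyruvate otherwise enters mitochondria, where the pyruvate dehydrogenase complex makes acetyl-CoA for the TCA cycle, whose steps feed electrons to respiration. Macrophages given LPS are known to raise their glycolysis and to interrupt the TCA cycle, while macrophages given IL-4 are known to rely on an intact cycle. Hypoxia-inducible factor 1, whose oxygen-regulated subunit is coded by Hif1a, raises many glycolysis genes, and pyruvate dehydrogenase kinase 1, coded by Pdk1, switches pyruvate dehydrogenase off.

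Facts of the whole series bear on every value below. The sums of normalized read counts were 2469768 to 2790981 without LPS, IL-4 included, and 3571492 to 4058199 with LPS. The authors had scaled the values, so these sums are not sequencing depths, and the depth behind a value is unknown. The median log2 difference of all tested genes from untreated lay between -0.24 and -0.30 at the LPS times and between -0.02 and 0.02 at the IL-4 times. Rescaling by median of ratios moved the LPS medians to between -0.0027 and -0.05, and rescaling to equal totals moved them to between -0.73 and -0.91, so that small changes under LPS depend on the scale. Replicate 1 stood apart: over the 620 genes with a mean of at least 1000, replicates 2 and 3 of a group differed with an SD of 0.14 to 0.29 on the log2 scale, and replicate 1 differed from replicate 2 with an SD of 0.37 to 0.45. The 8 macrophage markers summed to 10027 to 19679 in every sample, and the 5 lymphocyte markers to at most 4, with Cd3e and Cd3g at 0 in all samples. The 6 neutrophil and precursor markers summed to at most 31, the 4 mast cell, basophil and erythroid markers to at most 3, and the 4 dendritic cell markers to at most 98. The 5 stromal and endothelial markers summed to 28 to 44 in untreated samples and reached 224 with LPS and 183 with IL-4, and their part in the results was not tested.

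Values are normalized read counts. Differences are on the scale of log2(value + 1), given with their standard error (SE), and were tested with limma over all 13901 genes with Benjamini-Hochberg adjustment and a threshold of 0.05. A gene is called higher or lower only where it passed that threshold. In bulk samples, fewer cells of a type and less RNA per cell cannot be told apart.

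Under LPS the glycolysis genes moved in 2 phases, down for several at 0.5 h and up for most by 4 h. All 17 changed over the LPS course in the F test, in which 87.6% of all tested genes passed. At 0.5 h, 4 were higher and 8 lower, where 19.6% of all tested genes were higher and 34.4% lower. At 1 h, 6 were higher (24.8% of all) and 3 lower (39% of all), and at 2 h 9 were higher (26.9% of all) and 3 lower (39% of all). At 4 h, 14 of the 17 were higher, against 25.9% of all tested genes, and the other 3, Gpi1, Pfkm and Pfkfb4, were lower, against 37.6% of all. The median difference of the list was -0.46, 0.05, 0.84 and 1.51 at the 4 times, with an SD over replicates of 0.20, 0.05, 0.18 and 0.01, beside medians of -0.24, -0.30, -0.29 and -0.26 over all tested genes.

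The counts at the early times moved with the replicates and the scale. Without replicate 2, 7 glycolysis genes passed at 0.5 h, with 1 higher and 6 lower. With equal totals the split at 0.5 h was 1 higher and 9 lower, and with median of ratios it was 5 and 5. With equal totals it was 4 and 9 after 1 h, 6 and 5 at 2 h, and 9 and 3 after 4 h.

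**Figure D1:**
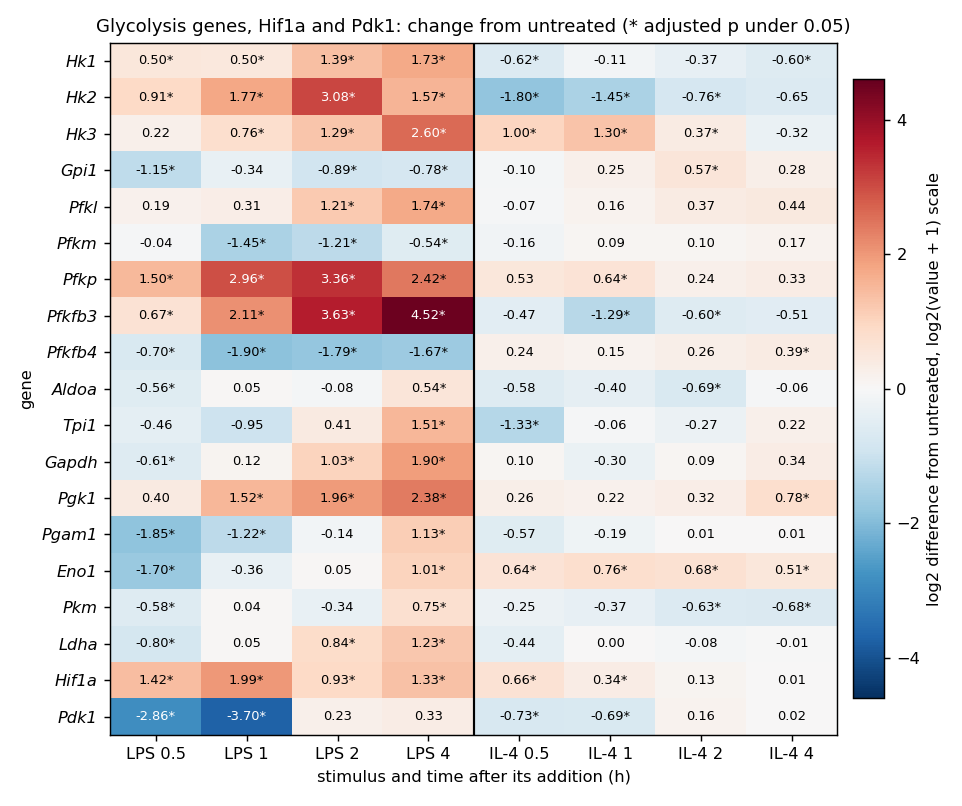
Log2 difference from untreated, on the log2(value + 1) scale, for the 17 glycolysis genes, Hif1a and Pdk1 (rows, in pathway order) at the 4 LPS and 4 IL-4 times (columns, in h), each cell the estimate from 3 against 3 samples. Red cells are higher and blue cells lower than untreated, and a star marks an adjusted p under 0.05. Pfkfb3 reaches 4.52 under LPS at 4 h, whereas the IL-4 columns lie between -1.80 and 1.30.

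The hexokinases trap glucose in the cell as glucose 6-phosphate, and all 3 measured here rose with LPS at different times. Hk2, the inducible isozyme (chromosome 6, 82725025 to 82774454, minus strand, GRCm38), held 99, 85 and 86 in the untreated samples and 242, 169 and 119 at 0.5 h of LPS. It went on to 451, 268 and 241 after 1 h, 994, 650 and 692 at 2 h, then 362, 259 and 206 after 4 h. Every LPS sample was above every untreated sample, replicate 1 was the highest in each LPS group, and the values at 4 h were below those at 2 h. The difference from untreated was 3.08 ± 0.28 (SE) at 2 h (limma adjusted p = 1.1e-07) and 1.57 ± 0.28 at 4 h.

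Hk1, the isozyme found in most tissues, held 137, 125 and 183 in untreated samples, 189, 221 and 215 at 0.5 h of LPS, and 249, 181 and 198 after 1 h. It reached 384, 375 and 397 at 2 h and 450, 532 and 485 after 4 h. The groups overlapped at 1 h and were apart at 2 and 4 h, where the difference was 1.39 ± 0.15 and 1.73 ± 0.15. With equal totals the sign of the small differences of Hk1 at 0.5 and 1 h turned. Hk3, an isozyme of myeloid cells, held 157, 180 and 187 in untreated samples, and 207, 191 and 211 at 0.5 h. It rose later, from 1 h on, to 417, 271 and 229 after 1 h, 652, 362 and 332 at 2 h, then 1179, 953 and 1065 after 4 h, so that the 4 h values stood far above all earlier ones. Its difference was not called at 0.5 h (0.22 ± 0.23) and was 2.60 ± 0.23 at 4 h (limma adjusted p = 9.2e-08).

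Phosphofructokinase commits sugar to glycolysis, and its 3 genes went different ways. Pfkp, the platelet isozyme, held 76, 126 and 113 in untreated samples, 280, 321 and 280 at 0.5 h of LPS, and 884, 785 and 756 after 1 h. It held 1293, 923 and 1015 at 2 h and 550, 541 and 572 after 4 h, always above the untreated samples and highest at 2 h. The difference was 3.36 ± 0.17 at 2 h (limma adjusted p = 1.1e-10). A non-coding gene on the other strand, Gm35730, overlaps Pfkp over 19061 bases and rose with it, by 1.84 ± 0.20 at 0.5 h and 3.19 ± 0.20 at 1 h. The sources do not state whether counting used strand, so reads of the overlapped part cannot be told apart. Pfkm, the muscle isozyme, held 49, 63 and 60 in untreated samples, 56, 56 and 54 at 0.5 h, and 18, 23 and 20 after 1 h. It stayed low at 2 h, with 17, 27 and 30, and came back in part at 4 h, with 35, 39 and 43. The fall at 1 h was -1.45 ± 0.22 (limma adjusted p = 3.1e-05). Senp1, on the other strand, overlaps Pfkm over 981 bases and had a mean of 288 over all samples, against 48.7 for Pfkm. Senp1 rose by 0.64 ± 0.11 at 2 h and 0.81 ± 0.11 at 4 h of LPS, and reads of the shared part cannot be told apart. Pfkl, the liver isozyme, was not called at 0.5 and 1 h and rose to a mean of 109 at 4 h from 31 in untreated samples (1.74 ± 0.31).

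The bifunctional PFKFB enzymes set the level of fructose 2,6-bisphosphate, the strongest activator of phosphofructokinase, and the 2 of their 4 genes in the glycolysis list moved in opposite directions. Pfkfb3, whose product mainly makes this activator (chromosome 2, 11471430 to 11553929, minus strand), held 330, 234 and 249 in untreated samples and 528, 403 and 363 at 0.5 h of LPS. It climbed to 1364, 984 and 1172 after 1 h, 3016, 3320 and 3663 at 2 h, then 6145, 6298 and 6122 after 4 h. Each LPS time lay wholly above the one before it, and the difference at 4 h, 4.52 ± 0.16, was the largest of the 43 genes in either course (limma adjusted p = 2.4e-12). Pfkfb4 held 146, 150 and 146 in untreated samples, 97, 92 and 82 at 0.5 h, and 43, 40 and 34 after 1 h. It stayed there, with 39, 48 and 39 at 2 h and 48, 51 and 39 after 4 h, so that no LPS sample reached an untreated one. The fall was -1.90 ± 0.16 at 1 h (limma adjusted p = 8.1e-08). Of the other PFKFB genes, Pfkfb2 fell too, from a mean of 123 in untreated samples to 24 at 2 h, and Pfkfb1, with means of 57.7 and 51.7, did not pass the test over the LPS course.

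**Figure D2:**
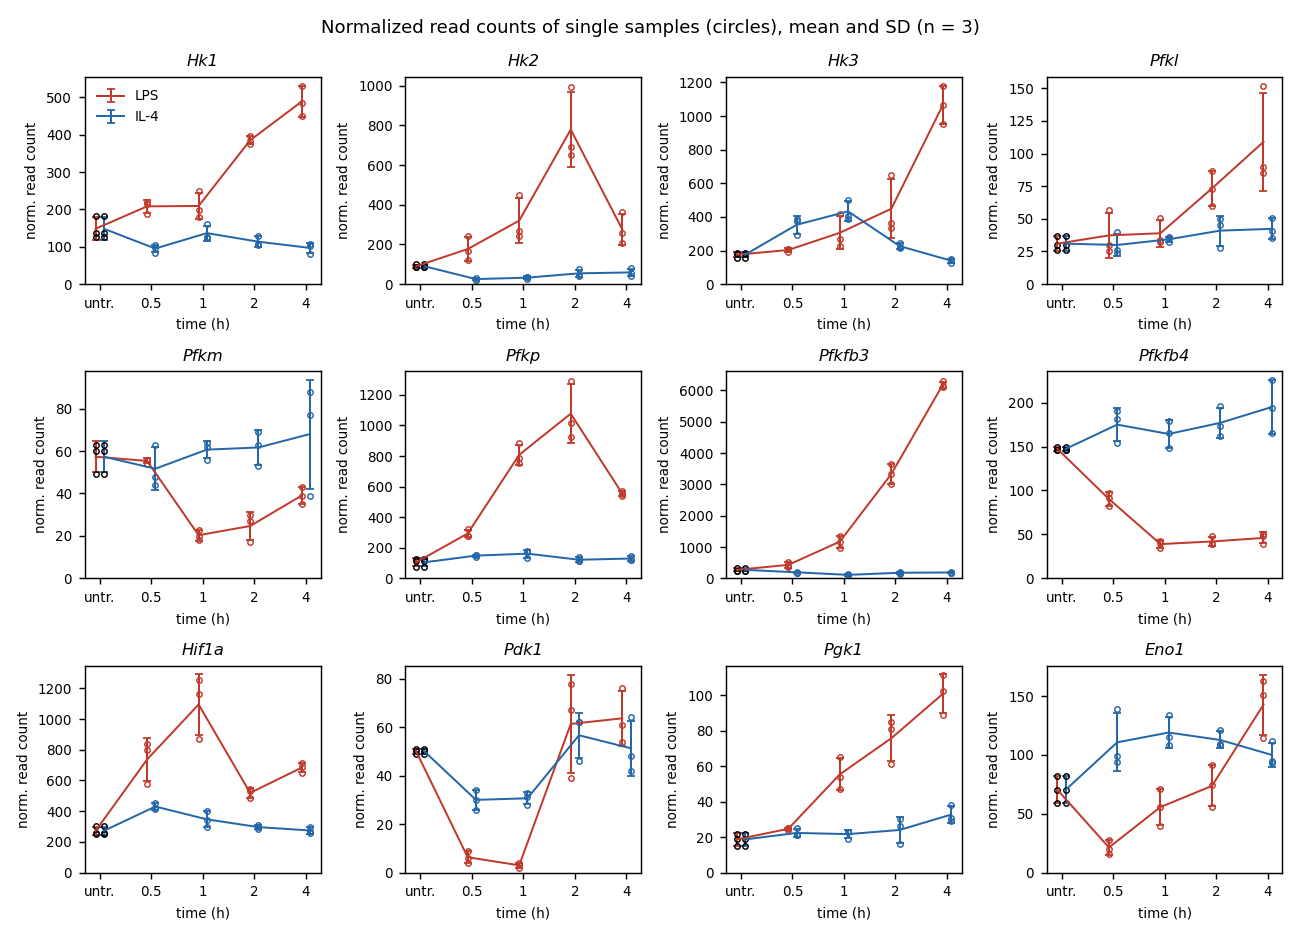
Normalized read counts (y axes, from 0) of 12 genes in untreated BMDMs and after 0.5 to 4 h (x axes) of LPS (red) or IL-4 (blue). Circles are single samples, lines join group means and bars are the SD of 3 samples. Pfkfb3 reaches 6298 at 4 h of LPS, Hk2 and Pfkp are highest at 2 h, and Pdk1 falls below 10 at 0.5 and 1 h of LPS.

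In the lower part of the pathway most genes dipped at 0.5 h and were higher at 4 h. This shape, lower at 0.5 h and higher at 4 h, was shared by 6 of the 17 genes (Aldoa, Gapdh, Pgam1, Eno1, Pkm and Ldha), and by 4.65% of all tested genes. Eno1, coding for enolase, held 59, 70 and 82 in untreated samples, 16, 28 and 20 at 0.5 h of LPS, and 40, 56 and 71 after 1 h. It then held 56, 91 and 74 at 2 h and 114, 163 and 151 after 4 h, so that the 0.5 h group lay below all untreated samples, the 4 h group above them, and the groups between overlapped them. The difference was -1.70 ± 0.26 at 0.5 h and 1.01 ± 0.26 at 4 h. Pgam1, phosphoglycerate mutase, had the larger dip with low values, from a mean of 23 in untreated samples to 5.67 at 0.5 h (-1.85 ± 0.45) and 52.3 at 4 h (1.13 ± 0.45). Ldha, which makes lactate from pyruvate, went from a mean of 60.7 to 35 at 0.5 h (-0.80 ± 0.21) and to 145 at 4 h (1.23 ± 0.21). Gapdh, often used as a constant reference gene, went from 41 to 26 at 0.5 h (-0.61 ± 0.24) and to 156 at 4 h (1.90 ± 0.24). Pkm, pyruvate kinase, and Aldoa, aldolase, moved less, by 0.75 ± 0.15 and 0.54 ± 0.21 at 4 h, and with equal totals the rise of Aldoa turned sign.

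Pgk1, phosphoglycerate kinase, the first ATP-making step of the pathway, was not called at 0.5 h of LPS and rose later. It held 19, 22 and 15 in untreated samples, 25, 25 and 24 at 0.5 h of LPS, and 54, 47 and 65 after 1 h. It reached 85, 61 and 81 at 2 h and 111, 102 and 89 after 4 h, and its groups were apart from untreated at all 4 times. The difference was 2.38 ± 0.20 at 4 h (limma adjusted p = 4.1e-08). Gpi1, glucose-6-phosphate isomerase, fell, with 125, 122 and 119 in untreated samples and 67, 48 and 50 at 0.5 h. It held 125, 88 and 80 after 1 h, 71, 65 and 60 at 2 h, then 81, 73 and 60 after 4 h, so that only the 1 h group overlapped the untreated one. The fall was -1.15 ± 0.19 at 0.5 h. Tpi1, triose phosphate isomerase, had the lowest level of the list, with 6, 7 and 8 in untreated samples and 22, 21 and 22 after 4 h (1.51 ± 0.45).

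The promoters of these genes were searched for 1 form of the core letters bound by hypoxia-inducible factors. The core searched was ACGTG on either strand, which also lies within the E-box CACGTG, and an E-box therefore holds the core on both strands. Other forms of the core were not searched or marked, so a gene without ACGTG may still hold another form. The sequences were the RefSeq promoter windows of GRCm38.p6, from 250 bases before to 50 bases after an annotated start. The core was present in at least 1 window of 11 of the 17 glycolysis genes (64.7%), of 6 of the 22 TCA list genes with a window (27.3%) and of 28.2% of the 10767 tested genes with a window. Per window the share was 50% for glycolysis, 37.9% for the TCA list and 19.6% for all 32851 windows, and the E-box was in 10.7%, 13.8% and 7.15%. Ogdh alone gave 6 of the 11 TCA windows with a core, and without its windows the TCA share was 5 of 23 (21.7%). The genes were not matched for base composition, and a match is a description of letters, not of binding. Of the 14 glycolysis genes higher at 4 h of LPS, 10 had the core and Pfkl, Pfkp, Tpi1 and Eno1 did not, and of the 3 lower genes Pfkm had it and Gpi1 and Pfkfb4 did not. The windows of 4 genes that rose are shown here, with the core in capitals and the E-box as a run of 6 capitals: Pfkfb3 for the largest rise, Hk2 and Pgk1 for 2 separate cores each, and Ldha for the most, 3 places of which 2 are E-boxes. They lie at chr2:11502041-11502340 (minus strand, a start inside the Pfkfb3 span), chr6:82774405-82774704 (minus), chrX:106186850-106187149 (plus) and chr7:46845554-46845853 (plus).
Pfkfb3: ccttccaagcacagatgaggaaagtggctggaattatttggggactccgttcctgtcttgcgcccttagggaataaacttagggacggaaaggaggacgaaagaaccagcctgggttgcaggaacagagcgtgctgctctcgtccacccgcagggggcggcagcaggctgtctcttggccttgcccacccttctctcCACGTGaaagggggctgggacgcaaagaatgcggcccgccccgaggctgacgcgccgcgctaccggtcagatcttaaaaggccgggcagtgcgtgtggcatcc
Hk2: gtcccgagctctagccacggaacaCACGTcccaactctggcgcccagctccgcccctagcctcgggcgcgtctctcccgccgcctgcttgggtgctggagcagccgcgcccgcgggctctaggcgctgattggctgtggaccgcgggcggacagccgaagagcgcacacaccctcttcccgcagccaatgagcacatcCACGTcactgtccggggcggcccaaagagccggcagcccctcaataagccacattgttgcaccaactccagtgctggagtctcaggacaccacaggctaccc
Pgk1: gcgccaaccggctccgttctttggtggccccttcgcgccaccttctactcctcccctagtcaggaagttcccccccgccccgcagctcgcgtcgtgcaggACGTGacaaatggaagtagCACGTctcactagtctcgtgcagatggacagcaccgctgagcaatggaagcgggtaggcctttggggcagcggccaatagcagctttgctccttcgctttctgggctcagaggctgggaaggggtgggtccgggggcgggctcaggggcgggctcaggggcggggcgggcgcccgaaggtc
Ldha: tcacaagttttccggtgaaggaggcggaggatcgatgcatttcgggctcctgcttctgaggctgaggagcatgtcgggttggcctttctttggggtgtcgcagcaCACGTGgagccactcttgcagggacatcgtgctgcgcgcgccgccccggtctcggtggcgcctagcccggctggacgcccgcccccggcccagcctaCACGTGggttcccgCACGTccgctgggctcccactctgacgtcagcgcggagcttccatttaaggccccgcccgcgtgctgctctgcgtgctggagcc

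The 2 regulators moved early and in opposite directions. Hif1a held 303, 260 and 253 in untreated samples, 577, 799 and 835 at 0.5 h of LPS, and 870, 1161 and 1255 after 1 h. It came down to 544, 483 and 531 at 2 h and held 690, 650 and 711 after 4 h, with every LPS sample above the untreated ones. The difference peaked at 1.99 ± 0.15 at 1 h (limma adjusted p = 2.7e-08). Hk2, Pfkp, Pfkfb3 and Pgk1 peaked at 2 or 4 h, but Hk2, Pfkp and Pfkfb3 were already called higher at 0.5 h. A link between Hif1a and these genes was not tested. The antisense gene Gm15283 overlaps Hif1a over 12831 bases and rose by 2.02 ± 0.23 at 1 h, and reads of the shared part cannot be told apart. Pdk1 held 49, 50 and 51 in untreated samples, 6, 4 and 9 at 0.5 h of LPS, and 3, 2 and 4 after 1 h. It returned to 39, 78 and 67 at 2 h and 61, 54 and 76 after 4 h. The fall was -2.86 ± 0.31 at 0.5 h and -3.70 ± 0.31 at 1 h (limma adjusted p = 7.1e-08). At values so low these sizes depend on the pseudocount, the 1 added to each value. At 2 and 4 h the differences of 0.23 ± 0.31 and 0.33 ± 0.31 were not called.

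In the TCA cycle list more genes were lower than higher at each LPS time, as was also so over all tested genes. Of its 24 genes 23 changed over the LPS course, all but Idh3b. At 0.5 h, 17 were lower and 2 higher, where 34.4% of all tested genes were lower and 19.6% higher. At 1 h, 13 were lower and 3 higher (39% and 24.8% of all), and at 2 h 11 and 3 (39% and 26.9%). At 4 h, 9 were lower and 3 higher (37.6% and 25.9% of all). The median of the list was -1.23, -0.81, -0.52 and -0.25 in order of time (SD over replicates 0.09, 0.06, 0.28 and 0.19), so that by 4 h it lay next to the median of all tested genes, -0.26. At 4 h the split of calls was 5 higher and 8 lower with median of ratios, and 1 and 14 with equal totals, which gave 0 and 18 at 2 h. Behind the rising median stood 2 groups of genes: 11 that were lower at 0.5 h and no longer lower at 4 h, a shape of 17.4% of all tested genes, and 6 that were lower at all 4 times (Aco1, Idh1, Idh2, Idh3g, Fh1 and Mdh1), a shape of 13.7% of all.

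**Figure D3:**
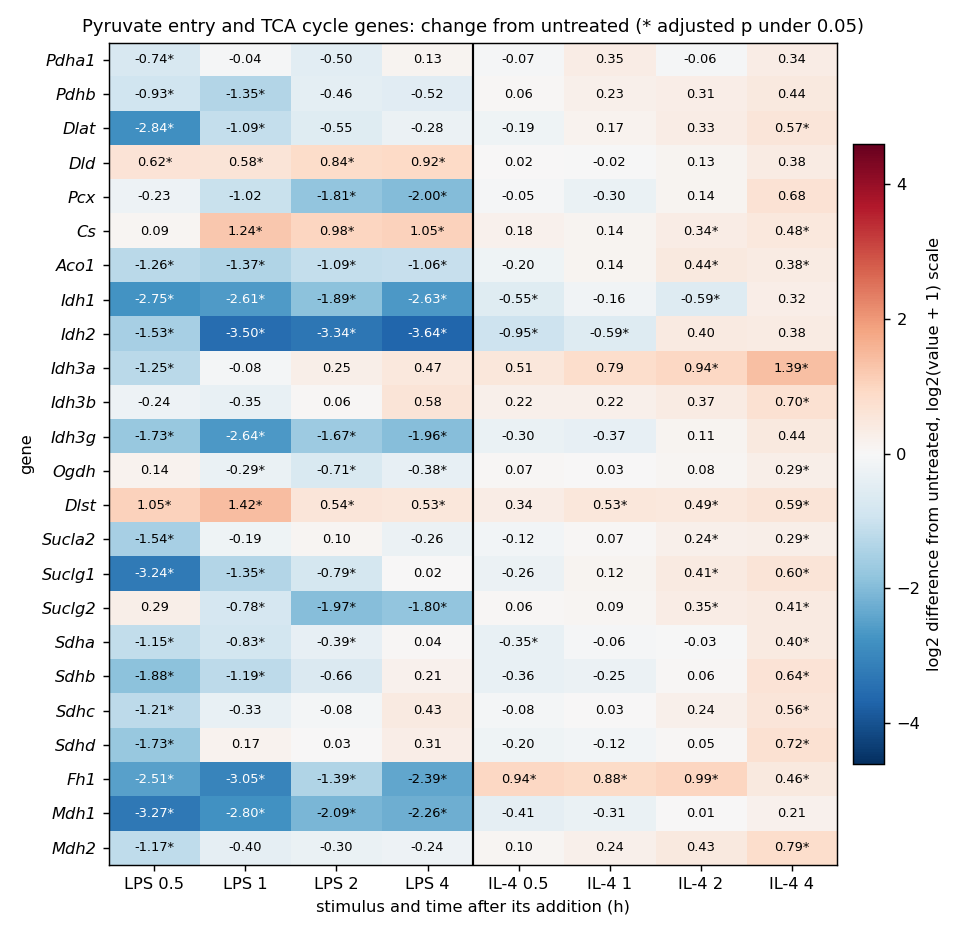
Log2 difference from untreated, on the log2(value + 1) scale, for the 24 genes of pyruvate entry and the TCA cycle (rows, in pathway order) at the 4 LPS and 4 IL-4 times (columns, in h), with red for higher, blue for lower and a star for an adjusted p under 0.05. The LPS column at 0.5 h is blue for most genes, Idh2 reaches -3.64 at 4 h, and the IL-4 column at 4 h has 16 stars, all on higher values.

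Of the isocitrate dehydrogenase genes, Idh1, Idh2 and Idh3g were lower at all 4 LPS times. Idh2, the mitochondrial NADP-dependent enzyme (chromosome 7, 80094846 to 80115350, minus strand), held 48, 48 and 57 in untreated samples, 19, 11 and 23 at 0.5 h of LPS, and 7, 3 and 2 after 1 h. It stayed at 4, 8 and 2 at 2 h and 5, 3 and 2 after 4 h, with no overlap with untreated at any time. The difference was -3.64 ± 0.45 at 4 h (limma adjusted p = 3.9e-06), a size that depends on the pseudocount at values so low. Idh1, its cytosolic counterpart (chromosome 1, 65158616 to 65186479, minus strand), fell from 253, 225 and 256 to 33, 48 and 28 at 0.5 h and 34, 43 and 41 after 1 h. It held 51, 76 and 71 at 2 h and 25, 64 and 36 after 4 h, and the fall was -2.75 ± 0.28 at 0.5 h (limma adjusted p = 1.2e-06). Of the 3 subunits of the NAD-dependent enzyme that runs the cycle, Idh3g was lower at all times (-2.64 ± 0.41 at 1 h), Idh3a only at 0.5 h (-1.25 ± 0.29), and Idh3b at none, with estimates between -0.35 and 0.58. Aco1, the cytosolic aconitase, was lower by between -1.06 and -1.37 at all times.

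Fh1 and Mdh1 also fell at all 4 LPS times. Fh1, fumarate hydratase (chromosome 1, 175601378 to 175625635, minus strand), held 123, 133 and 174 in untreated samples, 16, 36 and 24 at 0.5 h of LPS, and 19, 15 and 15 after 1 h. It held 47, 58 and 56 at 2 h and 17, 30 and 35 after 4 h, so that the 2 h samples were the highest of the LPS samples and still below untreated. The difference was -3.05 ± 0.29 at 1 h (limma adjusted p = 3.2e-07). Mdh1, cytosolic malate dehydrogenase, fell from 35, 39 and 44 to 3, 5 and 2 at 0.5 h (-3.27 ± 0.36) and held 5, 8 and 10 after 4 h. The size of the Mdh1 fall depends on the pseudocount at values so low. Mdh2, the mitochondrial enzyme, was lower only at 0.5 h (-1.17 ± 0.26), with means of 15.3 in untreated samples and 13 at 4 h.

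Subunits of one complex did not keep together. Succinyl-CoA synthetase has a shared subunit coded by Suclg1 and 2 alternative partners, Sucla2 and Suclg2. Suclg1 held 59, 71 and 77 in untreated samples, 4, 9 and 7 at 0.5 h of LPS, 22, 26 and 32 after 1 h, 33, 48 and 38 at 2 h, then 50, 84 and 80 after 4 h. At 4 h its samples lay around the untreated ones again, the difference having gone from -3.24 ± 0.28 at 0.5 h (limma adjusted p = 1.7e-07) to 0.02 ± 0.28 at 4 h. The gene Gm38834 overlaps it on the same strand over 5732 bases and had -3.49 ± 0.33 at 0.5 h. Sucla2 was lower only at 0.5 h (-1.54 ± 0.16). Suclg2 behaved in the opposite order, with means of 306 in untreated samples, 373 at 0.5 h (0.29 ± 0.16, not called), 178 at 1 h and 78.7 at 2 h (-1.97 ± 0.16). Suclg2 spans 246 kb, against 28.4 kb for Suclg1 and 43.4 kb for Sucla2.

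The 4 subunits of succinate dehydrogenase, which is both a cycle enzyme and complex II of respiration, did move together. All 4 were lower at 0.5 h, by -1.15 ± 0.15 for Sdha, -1.88 ± 0.33 for Sdhb, -1.21 ± 0.19 for Sdhc and -1.73 ± 0.30 for Sdhd. None of the 4 was called at 4 h, where the estimates lay between 0.04 and 0.43. At 1 h, Sdha and Sdhb were still lower and Sdhc and Sdhd were not called.

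The pyruvate dehydrogenase complex, which makes acetyl-CoA, fell at 0.5 h in 3 of its 4 listed subunits. Dlat, its E2 core, held 79, 69 and 68 in untreated samples, 11, 7 and 10 at 0.5 h of LPS, 27, 38 and 36 after 1 h, 36, 59 and 55 at 2 h, then 50, 72 and 57 after 4 h. The fall was -2.84 ± 0.24 at 0.5 h (limma adjusted p = 1.3e-07), and at 4 h the groups overlapped. Pdha1 and Pdhb, the E1 subunits, were lower at 0.5 h by -0.74 ± 0.23 and -0.93 ± 0.26, and Pdhb also at 1 h. Map3k15, on the other strand, overlaps Pdha1 over 1128 bases and had a mean of 68.8 over all samples, against 26.7 for Pdha1. Map3k15 was not called at 0.5 h of LPS (-0.17 ± 0.21), and reads of the shared part cannot be told apart. Dld, the E3 subunit shared with the oxoglutarate dehydrogenase complex, was higher at all 4 times, by 0.58 to 0.92. Pcx, pyruvate carboxylase, which refills the cycle with oxaloacetate, was low throughout, and fell from a mean of 19.3 to 4 at 4 h (-2.00 ± 0.45).

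Dlst and Cs were the largest rises of the list. Dlst, the E2 subunit of oxoglutarate dehydrogenase, held 93, 97 and 109 in untreated samples, 195, 222 and 206 at 0.5 h of LPS, 241, 296 and 270 after 1 h, 134, 160 and 143 at 2 h, then 131, 162 and 141 after 4 h. The rise was 1.42 ± 0.13 at 1 h (limma adjusted p = 1.9e-07), and with equal totals its smaller differences at 2 and 4 h turned sign. Ogdh, the E1 subunit of the same complex, was not called at 0.5 h and was lower later, by -0.71 ± 0.11 at 2 h. Cs, citrate synthase, held 82, 77 and 82 in untreated samples, 111, 74 and 76 at 0.5 h, 204, 181 and 187 after 1 h, 150, 186 and 146 at 2 h, then 132, 201 and 176 after 4 h. It rose by 1.24 ± 0.18 at 1 h (limma adjusted p = 2.5e-05) and the LPS groups were apart from untreated from 1 h on. Gm51822 on the other strand overlaps Cs over 7682 bases and rose by 1.65 ± 0.29 at 1 h.

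**Figure D4:**
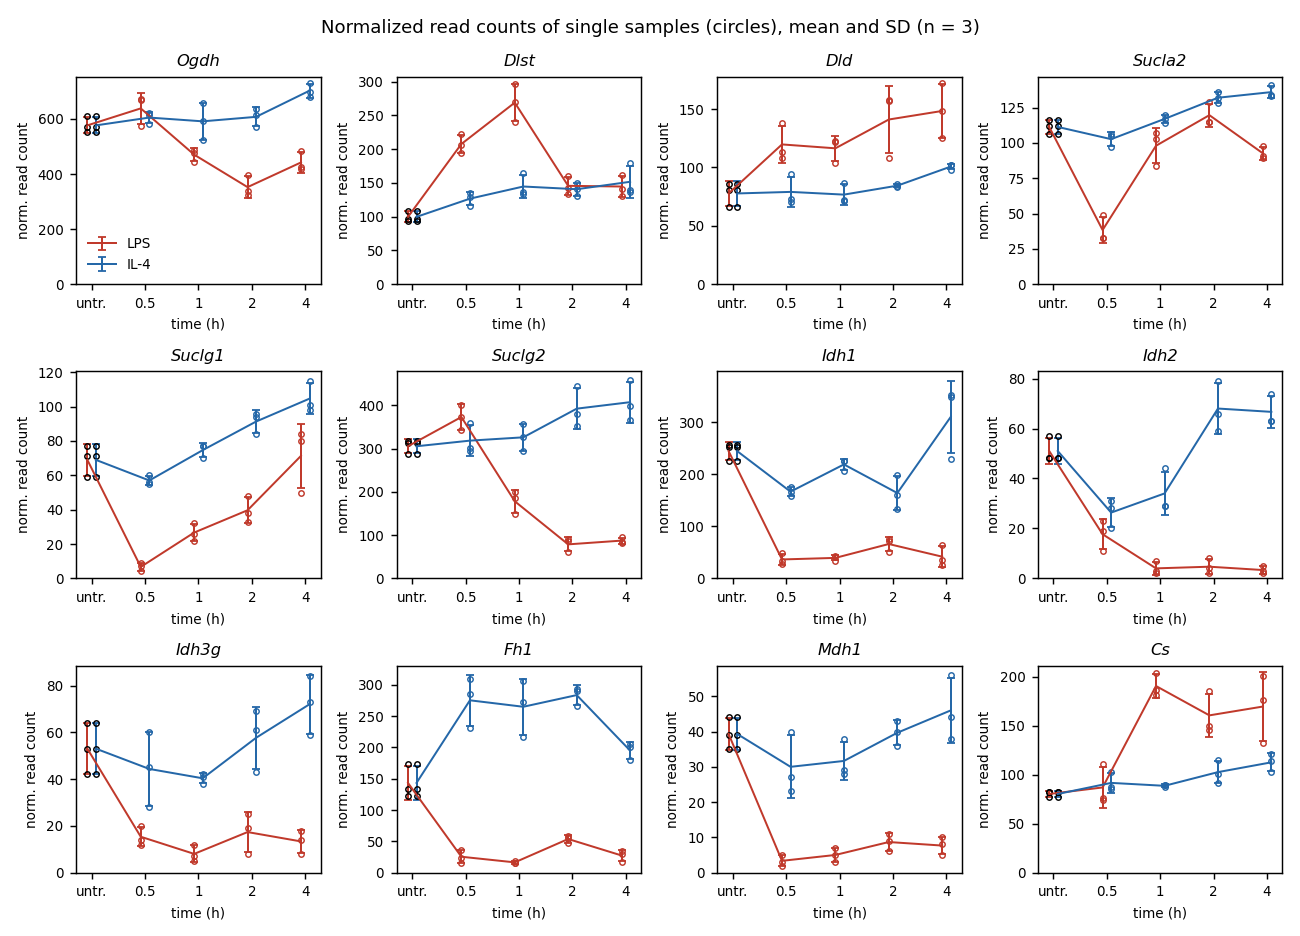
Normalized read counts (y axes, from 0) of 12 genes of the TCA cycle in untreated BMDMs and after 0.5 to 4 h (x axes) of LPS (red) or IL-4 (blue), with circles for single samples and bars for the SD of 3 samples around the mean. Suclg1 falls below 10 at 0.5 h of LPS and returns, Suclg2 falls later, and Fh1 is above its untreated level with IL-4 and below it with LPS.

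Fewer members were called with IL-4 than with LPS, and their differences from untreated lay between -1.80 and 1.39. In the F test over the IL-4 times, 9 of the 17 glycolysis genes and 16 of the 24 TCA list genes changed, where 40.3% of all tested genes passed. These counts rest on all 3 replicates. Without replicate 2 they were 1 and 8, without replicate 3 they were 3 and 4, and without replicate 1 they were 10 and 15. In glycolysis, 2 rose and 3 fell at 0.5 h (8.15% and 8.14% of all tested genes), 3 and 2 after 1 h (11.1% and 9.83%), 3 and 4 at 2 h (14.3% and 13.2%), and 3 and 2 after 4 h (13.4% and 12.5%). With equal totals the split was 2 and 7 at 0.5 h and 3 and 3 after 1 h, and with median of ratios it was 3 and 3 at 0.5 h and 2 and 3 after 4 h. There were 5 genes of the 17, Gapdh, Ldha, Pfkl, Pfkm and Pgam1, called at no IL-4 time, beside 57.3% of all tested genes. The called share of the glycolysis list was 29.4%, 29.4%, 41.2% and 29.4% in order of time, that of the TCA list 16.7%, 12.5%, 37.5% and 66.7%, and the difference between the lists was not tested. In the TCA list, 1 was higher and 3 lower at 0.5 h (1 and 6 with equal totals), 2 and 1 after 1 h, 8 and 1 at 2 h, and 16 and 0 after 4 h. Its median rose from -0.08 at 0.5 h to 0.08, 0.28 and 0.45 (SD over replicates 0.07, 0.04, 0.04 and 0.02), beside medians between -0.02 and 0.02 over all tested genes. The 16 calls at 4 h were 14 without replicate 1, 6 without replicate 2 and 3 without replicate 3, all higher. Of 18 called IL-4 values of members recomputed with 1 replicate left out, 14 lost their call without replicate 2 or 3, and 3 of these also without replicate 1 (adjusted p up to 0.276 with limma), and those of Hk2, Hk3, Pfkfb3 and Fh1 kept it. The 14 were Cs, Dlat, Dlst, Eno1, Gpi1, Hif1a, Hk1, Idh1, Idh2, Pdk1, Pfkfb4, Pfkp, Pgk1 and Suclg1.

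The hexokinases split under IL-4. Hk2, at 99, 85 and 86 untreated, held 31, 23 and 22 at 0.5 h of IL-4, 38, 35 and 25 after 1 h, 74, 43 and 46 at 2 h, then 80, 55 and 42 after 4 h. All IL-4 samples were below the untreated ones, the lowest at 0.5 h, with -1.80 ± 0.26 (limma adjusted p = 2.2e-04), and the difference of -0.65 ± 0.26 at 4 h was not called. Hk3, at 157, 180 and 187 untreated, held 293, 389 and 377 at 0.5 h of IL-4, 390, 501 and 408 after 1 h, 214, 246 and 219 at 2 h, then 127, 147 and 145 after 4 h. It rose by 1.30 ± 0.13 at 1 h (limma adjusted p = 4.6e-06) and was below its untreated samples, though not called, at 4 h. Hk1, at 137, 125 and 183 untreated, held 84, 98 and 104 at 0.5 h, 123, 160 and 127 after 1 h, 107, 130 and 104 at 2 h, then 82, 108 and 101 after 4 h. It was lower at 0.5 and 4 h (-0.62 ± 0.16 and -0.60 ± 0.16).

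Pfkfb3, at 330, 234 and 249 untreated, held 211, 186 and 183 at 0.5 h of IL-4, 146, 94 and 95 after 1 h, 218, 154 and 164 at 2 h, then 209, 185 and 171 after 4 h. The fall was -1.29 ± 0.18 at 1 h (limma adjusted p = 1.6e-04). Pfkfb4 held 181, 190 and 154 at 0.5 h, 179, 148 and 166 after 1 h, 196, 173 and 162 at 2 h, then 165, 194 and 226 after 4 h, above its untreated 146 to 150 in most samples and called only at 4 h (0.39 ± 0.12). Eno1 was the 1 glycolysis gene higher at all 4 IL-4 times, with means of 111, 119, 113 and 100 against 70.3 untreated. Pkm was lower at 2 and 4 h (-0.63 ± 0.15 and -0.68 ± 0.15) and Aldoa at 2 h (-0.69 ± 0.20). Gpi1 was higher at 2 h (0.57 ± 0.17), Pfkp at 1 h (0.64 ± 0.18) and Pgk1 at 4 h (0.78 ± 0.23). Pfkfb4, Pfkp and Pgk1 did not pass the F test of the 4 IL-4 times together (limma adjusted p = 0.14, 0.057 and 0.099). Tpi1 held 3, 1 and 3 at 0.5 h of IL-4 against 6, 7 and 8 untreated (-1.33 ± 0.28 at 0.5 h), values so low that this size depends on the pseudocount. Hif1a rose to 423, 415 and 453 at 0.5 h (0.66 ± 0.11), held 402, 298 and 341 after 1 h, 310, 283 and 296 at 2 h, and ended at 298, 269 and 256 after 4 h. Pdk1 held 34, 26 and 30 at 0.5 h and 33, 31 and 28 after 1 h, below untreated by -0.73 ± 0.17 and -0.69 ± 0.17, and 62, 46 and 62 at 2 h and 64, 48 and 42 after 4 h, overlapping untreated.

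Fh1 was the TCA list gene with the fastest and steadiest rise under IL-4. It held 285, 231 and 310 at 0.5 h, 306, 217 and 272 after 1 h, 291, 266 and 294 at 2 h, then 205, 180 and 200 after 4 h, all above the 123, 133 and 174 of untreated samples. The difference was 0.99 ± 0.15 at 2 h (limma adjusted p = 2.1e-04), and Fh1 was the only gene of the list called higher at all 4 times, a shape of 4.11% of all tested genes. At 4 h the rises were broad and small. The largest was that of Idh3a, from a mean of 13.3 to 36 (1.39 ± 0.28), followed by Mdh2 (0.79 ± 0.24), Sdhd (0.72 ± 0.23), Idh3b (0.70 ± 0.15) and Sdhb (0.64 ± 0.15). All 4 succinate dehydrogenase subunits, all 3 succinyl-CoA synthetase subunits, and Dlat, Cs, Aco1, Ogdh and Dlst were also among the 16. Of the 16, Mdh2 and Ogdh did not pass the F test of the 4 IL-4 times together (limma adjusted p = 0.080 and 0.070). Sdha was lower at 0.5 h (-0.35 ± 0.07) and higher at 4 h (0.40 ± 0.07), a sequence seen in 0.266% of all tested genes. Idh1 and Idh2 were lower at 0.5 h, by -0.55 ± 0.16 and -0.95 ± 0.20, and were not called at 4 h, and Idh1 was lower again at 2 h (-0.59 ± 0.16). Dlst was higher from 1 h on, by 0.49 to 0.59. Dld, Pcx, Pdha1, Pdhb, Idh3g and Mdh1 were called at no IL-4 time, where 57.3% of all tested genes were called at none.

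LPS and IL-4 were also compared directly at each time, in a fit of all 27 samples that does not use the untreated samples for this contrast. In glycolysis, 4 genes were higher and 6 lower with LPS than with IL-4 at 0.5 h, where 18% of all tested genes were higher and 35.8% lower. The counts were 6 and 6 after 1 h (24% and 40.5% of all), 10 and 4 at 2 h (26.4% and 42.3%), and 13 and 3 after 4 h (26.1% and 41.9%). In the TCA list the counts were 2 and 16 at 0.5 h, 3 and 15 after 1 h, 2 and 16 at 2 h, and 2 and 16 after 4 h. The median difference of the glycolysis list was 1.31 at 4 h (SD over replicates 0.06) and that of the TCA list -0.76 (SD 0.18), beside -0.36 over all tested genes. With median of ratios the glycolysis split was 5 and 5 at 0.5 h and 8 and 3 after 1 h. With equal totals it was 4 and 7 after 1 h, 5 and 5 at 2 h and 10 and 3 after 4 h, and that of the TCA list was 0 and 22 at 2 and at 4 h.

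The widest gap in glycolysis was that of Pfkfb3, 5.04 ± 0.17 at 4 h, where its means were 6188 with LPS and 188 with IL-4. Hk2 differed by 3.83 ± 0.29 at 2 h, with means of 779 and 54.3. Hk3 changed sides, lower with LPS by -0.79 ± 0.20 at 0.5 h and higher by 2.92 ± 0.20 at 4 h. Eno1 also went from -2.34 ± 0.22 at 0.5 h to 0.50 ± 0.22, not called, at 4 h. In the TCA list the widest gaps were those of Idh2, -4.02 ± 0.37 at 4 h, and Fh1, -3.93 ± 0.24 at 1 h, with means of 16.3 with LPS and 265 with IL-4.

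Within an enzyme family, shares were taken from values per kb of gene span, since chromatin RNA holds introns. They are given as a description with no test, and an exact permutation test of 3 against 3 samples has a smallest p of 0.1. Hk3 made up 78.2% ± 2.26 (SD, n = 3) of the hexokinase signal in untreated samples, 59.3% ± 4.61 at 2 h of LPS and 94.3% ± 0.920 at 0.5 h of IL-4, while Hk2 made up 12.6% ± 1.98, 33.0% ± 2.64 and 2.18% ± 0.773. Pfkp made up 35.0% ± 5.00 of the phosphofructokinase signal in untreated samples, Pfkm 33.4% ± 1.61 and Pfkl 31.7% ± 5.85, whereas per kb of transcript these were 48.5%, 36.3% and 15.1%. At 1 h of LPS, Pfkp held 84.2% ± 1.32 and Pfkm 3.70% ± 0.718, and no LPS sample at 1 h overlapped the untreated range of either. Pfkfb3 held 47.1% ± 4.82 of the sum of Pfkfb3 and Pfkfb4 in untreated samples, 98.5% ± 0.184 at 4 h of LPS and 24.7% ± 3.43 at 1 h of IL-4. Over all 4 PFKFB genes, a set taken after the data were seen, it held 29.8% ± 5.56, 96.4% ± 0.404 and 14.1% ± 3.87. Per kb of transcript in place of gene span, Hk3 held 52.1% in untreated samples and Hk2 38.8% at 2 h of LPS, above the 36.9% of Hk3, so that the order of the hexokinases at that time depends on the length used.

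**Figure D5:**
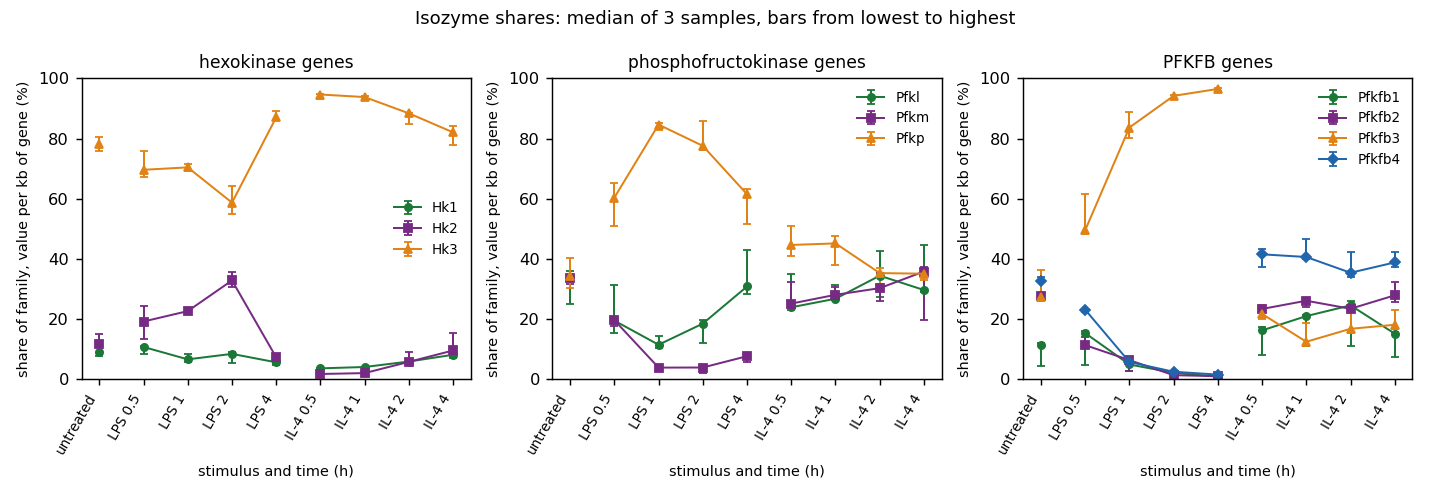
Share of each gene in its family's signal (y axis, percent of the summed normalized read counts per kb of gene span) in untreated samples and at each LPS and IL-4 time (x axis), as the median of 3 samples with bars from the lowest to the highest. With LPS, Pfkp reaches 84.7% at 1 h, Pfkfb3 reaches 96.5% of the 4 PFKFB genes at 4 h and Hk2 peaks at 2 h. With IL-4, Hk3 and Pfkfb4 hold the largest shares of their families, as they also do in untreated samples, and Hk3 does so in every LPS group too.

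Genes next to these pathways were read from the same fits as further lists. Their counts over the courses are to be read beside the 87.6% of all tested genes that changed over the LPS course and the 40.3% that changed over the IL-4 course. Of 8 genes of glucose and lactate transport 7 were tested, of which all 7 passed the test over the LPS course (100%) and 3 the test with IL-4 (42.9%). Slc2a1, the main basal glucose carrier, rose from a mean of 47 to 352 at 0.5 h of LPS (2.87) and to 116 at 1 h of IL-4 (1.29). Slc2a6, a carrier of lysosomal membranes, rose from 87.7 to 2972 at 2 h of LPS (5.11) and to 177 at 0.5 h of IL-4 (1.13). Slc16a3, which exports lactate, rose from 21 to 87 at 4 h of LPS (2.00) and was not called with IL-4. Slc16a7, a carrier with high affinity for pyruvate, fell from 493 to 20.7 at 2 h of LPS (-4.51) and less with IL-4 (-0.73 at 2 h). Of 17 further glycolysis isozymes 8 passed the filter, 6 of them changed with LPS (75%), and Eno2 rose from 10 to 63 at 1 h (2.63) while Pfkfb2 fell from 123 to 24 at 2 h (-2.32). With IL-4, 1 of the 8 changed (12.5%), Pfkfb2 (-0.31 at 1 h).

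Of 9 pentose phosphate pathway genes, which make NADPH and ribose, 8 passed the F test over the LPS course (88.9%) and all 9 were called lower at 0.5 h, where 34.4% of all tested genes were lower, with a median of -1.48. Taldo1 and Tkt, the transaldolase and transketolase, fell by -2.62 and -1.99 at 0.5 h, and Rpe rose by 1.84 at 4 h. With IL-4, 6 of the 9 changed (66.7%), among them Pgd (-0.57 at 4 h), Tkt (-0.46 at 0.5 h) and Taldo1, whose peak of -0.39 was not called by itself. Of 14 genes of the HIF-1 pathway 12 were tested, 11 changed with LPS (91.7%) and 6 with IL-4 (50%), and the median lay between -0.38 and 0.03 with LPS. P4ha1, a collagen prolyl hydroxylase, was higher at 4 h of LPS (2.24) and at 1 h of IL-4 (1.61). Egln1, a prolyl hydroxylase that marks HIF-1 for decay, fell by -2.08 at 0.5 h of LPS. Vegfa was higher at 0.5 h of LPS (1.80) and lower at 4 h (-1.80), and fell with IL-4 (-1.93 at 2 h). Ndrg1 was higher at 1 h with both LPS (1.33) and IL-4 (1.31).

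Of 9 genes that control pyruvate dehydrogenase or carry pyruvate 8 were tested, and all 8 changed over the LPS course (100%). Pdpr, the regulatory subunit of pyruvate dehydrogenase phosphatase, fell from 87 to 7.33 at 1 h (-3.42), Pdhx, a structural subunit of the complex, by -1.18 at 0.5 h, and Mpc1, a subunit of the mitochondrial pyruvate carrier, rose by 1.03 at 1 h. With IL-4, 3 of the 8 changed (37.5%), and Pdhx was higher at 0.5 h (0.55). Of 21 enzymes and carriers linked to the TCA cycle 18 were tested, 18 changed with LPS (100%) and 8 with IL-4 (44.4%), and at 0.5 h of LPS 14 were lower and 2 higher (34.4% and 19.6% of all tested genes). Acod1, which turns the cycle intermediate cis-aconitate into itaconate, rose from a mean of 4.33 to 1877 at 0.5 h and 11445 at 4 h of LPS (11.16), and was not called with IL-4. Pck2, mitochondrial phosphoenolpyruvate carboxykinase, fell from 80 to 1 at 4 h of LPS (-5.29, a size that depends on the pseudocount at so low a level), and was lower with IL-4 (-1.38 at 1 h). Got1, the cytosolic aspartate transaminase, fell by -3.44 at 4 h of LPS and -0.95 at 2 h of IL-4, and Glul, glutamine synthetase, by -1.35 at 0.5 h of IL-4.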

How the data were processed

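RNA bound to chromatin was extracted from 27 BMDM samples in 9 groups and sequenced from random-primed cDNA. The authors aligned reads with TopHat2 2.1.1 to the mm10 genome and RefSeq transcripts, removed multi-mapping and blacklisted reads (bedtools 2.29.2), counted reads per gene over GRCm38.p6, and scaled the counts on genes that did not vary. The strand of counting is not given in the sources used here. The deposited values are these normalized counts rounded to whole numbers, a score and not raw read counts, so no count model was used. Removing multi-mapping reads lowers genes with close copies.

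From the deposited table, log2(value + 1) was fitted with limma 3.58.1 (R 4.3.3, trended variance) on genes with at least 10 in at least 3 of the 27 samples. Each course was fitted with the untreated samples, LPS minus IL-4 was fitted over all 27, and p-values were Benjamini-Hochberg adjusted over all 13901 tested genes, with a threshold of 0.05. The study's own impulse model was not run here. The fits were tested on simulated data. Values in every sample are given for genes that passed the course test with a mean of at least 50 in the higher group and a peak log2 difference of at least 1, at most 5 in each direction, and always for the hexokinases, the PFKFB pair, Hif1a and Pdk1, and of further lists the 3 largest and Slc2a1, Slc16a3 and Acod1 are named. Other genes named with their values were chosen after those were seen. The members and lists were chosen with earlier results of these data known. Alternatives were other scalings, filters and pseudocounts, leaving out each replicate, a replicate block, averaging replicates 2 and 3, and 1 fit of all samples.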

Additional observations from a re-analysis of the deposited data

Results flagged for a closer look

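LPS and IL-4 moved 12 of the 43 members in opposite directions at the same time, with both changes past the threshold and the direct LPS minus IL-4 difference tested with limma over all 13901 genes. In order of time, 4, 3, 7 and 7 members did so (9.3%, 6.98%, 16.3% and 16.3% of the 43), beside 2.81%, 4.78%, 7.34% and 7.83% of all tested genes. Each difference below is on the log2 scale, with 3 samples on each side, at the time where it was taken.

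In glycolysis, Pfkfb3 differed by 4.23 ± 0.17 (SE) at 2 h (limma adjusted p = 4.3e-16), made of 3.63 with LPS and -0.60 with IL-4. Hk2 differed by 3.83 ± 0.29 at 2 h and Hk1 by 2.33 ± 0.15 at 4 h. Pkm, the pyruvate kinase gene, differed by 1.43 ± 0.15 at 4 h. The other way round, Eno1 differed by -2.34 ± 0.22 at 0.5 h, Pfkfb4 by -2.06 ± 0.14 at 4 h and Gpi1 by -1.47 ± 0.19 at 2 h.

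In the TCA list all 5 genes were lower with LPS and higher with IL-4. Fh1 differed by -3.93 ± 0.24 at 1 h (limma adjusted p = 9.8e-13), made of -3.05 with LPS and 0.88 with IL-4. Suclg2 differed by -2.32 ± 0.14 at 2 h, Aco1 by -1.54 ± 0.18 at 2 h, Suclg1 by -1.20 ± 0.22 at 2 h and Ogdh by -0.67 ± 0.10 at 4 h. All 12 direct differences kept their sign and their call in all 120 refits under the alternatives, which were added after the data were seen. The 12 genes had been picked for opposite calls in these same data, which favours a large direct difference. Its stability is therefore not independent support for the opposite directions. The IL-4 side was less stable. At the times given, 2 of the 12 IL-4 calls were lost without replicate 1, 10 without replicate 2 and 11 without replicate 3, and of the LPS calls that of Suclg1 was lost without replicate 2 and those of Suclg1 and Ogdh without replicate 3. Fh1 was the 1 gene of the 12 that kept both calls whichever replicate was left out. Ogdh and Pfkfb4 did not pass the F test of the 4 IL-4 times together (limma adjusted p = 0.070 and 0.14).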

How the results depend on the processing

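Of 300 refits of the 28 counts of called members, 260 stayed within 1.5 times. The LPS values of the named members kept direction and call in 205 of 205 refits, the IL-4 values in 161 of 205, and none of the 410 turned sign. For glycolysis under IL-4, with 9 genes called over the course, no filter on low values gave 5 and averaging replicates 2 and 3 gave 2. At 0.5 h, with 5 called, equal totals gave 9, the replicate block 9 and averaging 2. At 2 h, with 7 called, no filter gave 2 and averaging 1. At 4 h, with 5 called, no filter gave 3, the block 8 and averaging 1. For the TCA list, a filter on a mean of 50, which left 16 of the 24 genes, gave 15 over the LPS course and 12 at 0.5 h of LPS. Under IL-4, averaging gave 7 over the course, and 1, 1, 1 and 8 at the 4 times. One fit of all samples gave 1 at 0.5 h, 3 at 2 h and 8 at 4 h, and equal totals gave 7 at 0.5 h. The causes of these shifts in the counts were not tested.

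With 1 replicate left out, glycolysis counts ranged from 7 to 12 at 0.5 h of LPS. Under IL-4 they ranged from 1 to 10 over the course and, in order of time, were 2 to 7, 3 to 7, 0 to 7 and 1 to 5. TCA list counts under IL-4 ranged from 4 to 15 over the course and, likewise, were 1 to 4, 1 to 4, 2 to 7 and 3 to 14. The main fit did not treat the replicate numbers as pairs. Samples of the same number nevertheless correlated positively, with medians of 0.50, 0.22 and 0.29 for numbers 1, 2 and 3. The lowest correlations were 0.35, 0.0897 and 0.20 in the same order, and the median between numbers was -0.31. Of 27 samples, 19 correlated best with their own number on average. The numbers therefore mark a shared structure, which the block setting fits and the main fit leaves in the spread. With the block, the other counts stayed within 1.5 times. Depth is unknown, so counting error could not be given.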
